A study of Mus musculus with 12 samples.

Results

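The genes described here are the small nuclear, small nucleolar and Cajal body RNA genes of mouse CD8+ T cells, taken from RNA sequencing of whole cells. The labels name an mRNA-Seq kit on total RNA and no library made for small RNAs, so reads of mature small RNAs, of their precursors and of introns cannot be told apart, and every value below is of reads within these genes. Members were chosen by 2 values: a deposited gene class of snoRNA, snRNA or scaRNA, and a mean of at least 1 FPKM (fragments per kilobase of gene, scaled to the reads of the library) over all 12 libraries. Of 2943 listed genes of these classes 155 met both conditions, which is 101 of 1507 snoRNA genes, 47 of 1385 snRNA genes and 7 of 51 scaRNA genes. Of the 2943 genes, 2248 had no read in any library and 695 had at least 1. Just below the limit stood Gm22728 at a mean of 0.9872 FPKM, Gm25291 at 0.9880 and Gm23483 at 0.9886, and just above it Gm24336 at 1.021, Gm22980 at 1.061 and Scarna8 at 1.093. The mean over all libraries selected the members, so their level is a description and supports nothing.

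The series asks how lowering of the transcription factor Creb1 changes the response of CD8+ T cells to trans-vaccenic acid (TVA), a long-chain fatty acid. Primary mouse CD8+ T cells of genotype WT received either a non-targeting siRNA (siNTC) or an siRNA against Creb1 (siCreb1), and were labelled with a treatment of DMSO, the solvent, or of TVA and a time of 24 hours. The 4 groups are siNTC with DMSO, siNTC with TVA, siCreb1 with DMSO and siCreb1 with TVA, with 3 libraries each, named here by group and replicate number. The labels do not say whether replicates are separate cultures or come from separate mice, so p-values measure only the spread between these samples, and an siRNA lowers its target without removing it. The siNTC libraries gave 20236123, 17523623 and 20758033 recovered reads with DMSO, and 18439724, 16660234 and 20263843 with TVA. From siCreb1 cells came 20760297, 22192484 and 21995620 reads with DMSO, and 23616471, 24602484 and 21804748 with TVA. Every siCreb1 library was thus deeper than every siNTC library, and the part of depth in the differences below was not tested.

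Small nucleolar RNAs guide chemical changes of ribosomal RNA in the nucleolus: box C/D RNAs direct methylation of the ribose, and box H/ACA RNAs direct the change of uridine to pseudouridine. Small nuclear RNAs are the RNA parts of the spliceosome, and Cajal body RNAs guide the same kinds of changes on small nuclear RNAs. Most vertebrate small nucleolar RNAs are released from introns of host genes, whereas most small nuclear RNAs are transcribed from genes of their own.

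The following 10 sequences are those of 8 genes called in comparisons below and of Snord104 and Snord72, which carried many reads; they are shown so that the box letters of snoRNAs, or their absence, can be read beside the results. They are transcript sequences of GENCODE vM21 on GRCm38, 5′ to 3′, and all 155 members had the same position and strand there as in the deposited files. Capitals mark TGATG within the first 20 bases (the C box) together with CTGA within the last 20 (the D box), or ACA directly before the last 3 bases. In AF357399, Gm22478 and Gm25131 none of these letters stood in the searched places, and Snord71 held CTGA near its end with no TGATG near its start, so these 4 are in lower case throughout. No letters particular to snRNA genes are marked.
Snord7: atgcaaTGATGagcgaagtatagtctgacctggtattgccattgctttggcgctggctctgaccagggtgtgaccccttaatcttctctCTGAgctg
Snord71: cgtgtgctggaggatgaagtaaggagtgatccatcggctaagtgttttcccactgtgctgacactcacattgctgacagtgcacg
Gm25632: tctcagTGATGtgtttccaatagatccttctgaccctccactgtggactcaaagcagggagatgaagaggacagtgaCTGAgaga
Snord104: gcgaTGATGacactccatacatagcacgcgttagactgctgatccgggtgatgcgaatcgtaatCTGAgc
Snord72: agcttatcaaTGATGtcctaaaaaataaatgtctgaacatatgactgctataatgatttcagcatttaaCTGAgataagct
Snora20: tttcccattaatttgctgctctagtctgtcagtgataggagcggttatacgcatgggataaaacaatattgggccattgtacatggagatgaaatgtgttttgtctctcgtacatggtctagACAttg
Gm25777: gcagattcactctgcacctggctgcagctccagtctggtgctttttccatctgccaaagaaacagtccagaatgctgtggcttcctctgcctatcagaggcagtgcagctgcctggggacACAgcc
AF357399: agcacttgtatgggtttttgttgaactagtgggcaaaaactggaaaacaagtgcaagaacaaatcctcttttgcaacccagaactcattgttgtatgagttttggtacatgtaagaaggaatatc
Gm22478: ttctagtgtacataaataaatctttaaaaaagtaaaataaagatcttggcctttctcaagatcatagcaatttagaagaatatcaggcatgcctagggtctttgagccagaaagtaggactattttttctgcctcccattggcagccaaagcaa
Gm25131: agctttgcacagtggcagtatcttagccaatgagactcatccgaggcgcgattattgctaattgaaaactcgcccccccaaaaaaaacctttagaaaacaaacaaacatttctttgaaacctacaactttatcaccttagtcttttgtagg

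Among the 101 snoRNA members, 48 (47.5%) held both TGATG and CTGA in these places, against 23.6% of all 1507 snoRNA transcripts. ACA directly before the last 3 bases was found in 34 of the 101 (33.7%), against 18.3% of all snoRNA transcripts. These matches are descriptions of the letters alone, searched on the transcribed strand.

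Creb1 (ENSMUSG00000025958, chr1:64532645-64604548, + strand), the siRNA target, gave 3012, 2457 and 2990 reads under siNTC, 2800, 2738 and 3471 with TVA added, 341, 396 and 539 under siCreb1 and 596, 575 and 354 with TVA added. Every siCreb1 library lay below every siNTC library. Its mean level was 10.6 ± 0.359 FPKM (SD, n = 3) and 11.8 ± 0.711 under siNTC without and with TVA, and 1.42 ± 0.314 and 1.55 ± 0.338 under siCreb1. The log2 fold change of FPKM with 1 added was −2.27 (SE 0.11, adjusted p = 2.21e-06) without TVA and −2.34 (SE 0.11, adjusted p = 2.45e-06) with TVA. TVA itself gave 0.14 (adjusted p = 0.503) in siNTC and 0.08 (adjusted p = 0.896) in siCreb1 cells.

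The libraries carried the markers of CD8+ T cells: all 9 listed genes had a mean of at least 1 FPKM, the most abundant being Cd8b1 at 887 FPKM, and their summed level ran from 2405 to 2516 FPKM over the libraries. Group means of that sum were 2514 FPKM for siNTC, 2513 with TVA added, 2413 in siCreb1 and 2428 in siCreb1 plus TVA. In siCreb1 against siNTC without TVA, 4 of the 9 were called lower, Cd8b1 (log2 −0.16, adjusted p = 0.000665), Cd3d (−0.15, adjusted p = 0.00615), Cd3g (−0.13, adjusted p = 0.00992) and Lck (−0.10, adjusted p = 0.0160). Called higher were Cd8a (0.09, adjusted p = 0.00397), Ptprc (0.09, adjusted p = 0.0225) and Gzmb, a killing enzyme of these cells (0.43, adjusted p = 5.14e-05). With TVA, Cd8b1 (−0.14, adjusted p = 0.00224) and Cd3d (−0.13, adjusted p = 0.0158) were lower in siCreb1 than in siNTC cells. Cd8a (0.09, adjusted p = 0.00680) and Ptprc (0.09, adjusted p = 0.0230) were higher there, and no other was called, Gzmb giving 0.05 (adjusted p = 0.406). TVA in siNTC cells gave 0.31 for Gzmb (adjusted p = 0.000247). Of the markers of other blood cells, 2 of 3 for CD4 T cells reached 1 FPKM (Foxp3 highest at 2.61, Cd4 at 1.27, list sum 3.98 to 5.82), 1 of 4 for B cells (Cd79a at 1.61, sum 1.23 to 2.93) and 2 of 3 for NK cells (Klrb1c at 3.14, sum 4.54 to 6.55). Lyz2 was the only myeloid marker of 5 above the limit, at 6.19 FPKM (sum 5.44 to 9.34), and none of 3 erythroid markers reached it (Alas2 highest at 0.140, sum 0.0250 to 0.567, Hbb-bs at 0 in every library). Group means of the myeloid sum were 7.07 FPKM for siNTC, 6.23 with TVA added, 6.53 in siCreb1 and 8.71 in siCreb1 plus TVA, and Lyz2 was higher in siCreb1 than in siNTC cells with TVA (0.40, adjusted p = 0.0478). The part of other cells in the results below was not tested.

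Small RNA genes gave few reads. Members were 56 to 414 bases long with a median of 107, against 3738 bases over all 11550 tested genes, so that 1 read of a gene of median length is worth 0.380 to 0.561 FPKM, depending on the library. The 155 members together held 18523 reads, 0.160 to 0.238% of all FPKM of a library. Counts of 0 were common: 70 members had 0 reads in at least 1 library and 85 had a read in each. The median member had a mean of 6.33 reads per library, where the median tested gene had 691. A mean under 5 reads was seen in 55 members, 5 to under 10 in 49, 10 to under 20 in 32, and 20 or more in 19. The 10 members with the most reads held 24.3% of all member reads and Snord104 alone 5.11%. By class the median of mean reads was 6.75 for snoRNA, 5.67 for snRNA and 9.83 for scaRNA members. Members at or above 1 FPKM on average numbered 132 in siNTC, 134 in siNTC plus TVA, 146 in siCreb1 and 140 in siCreb1 plus TVA, and 103 were so in every group. Over all 2943 genes of the 3 classes the counts were 146, 150, 178 and 184.

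Fitted changes of members and their errors were larger than those of most tested genes. The median SE of a member's log2 fold change was 0.46, against 0.06 over all tested genes, and the median size of the fold change without regard to sign was 0.35 to 0.46 over the 4 comparisons of groups, against 0.05 to 0.09. Members with fewer than 5 mean reads had a median SE of 0.55, those with 5 to under 10 had 0.49, those with 10 to under 20 had 0.40 and those with 20 or more had 0.27. Within groups, the variance of the reads was 2.16 times the counting variance at the median member, and 2.28 times at the median of 1581 other tested genes with 1 to 100 mean reads, most of which were deeper. At matched depth, members and other genes had medians of 2.00 and 2.22 under 5 mean reads, 2.46 and 2.19 at 5 to under 10, 2.18 in both at 10 to under 20, and 2.14 and 2.33 at 20 or more.

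**Figure D1:**
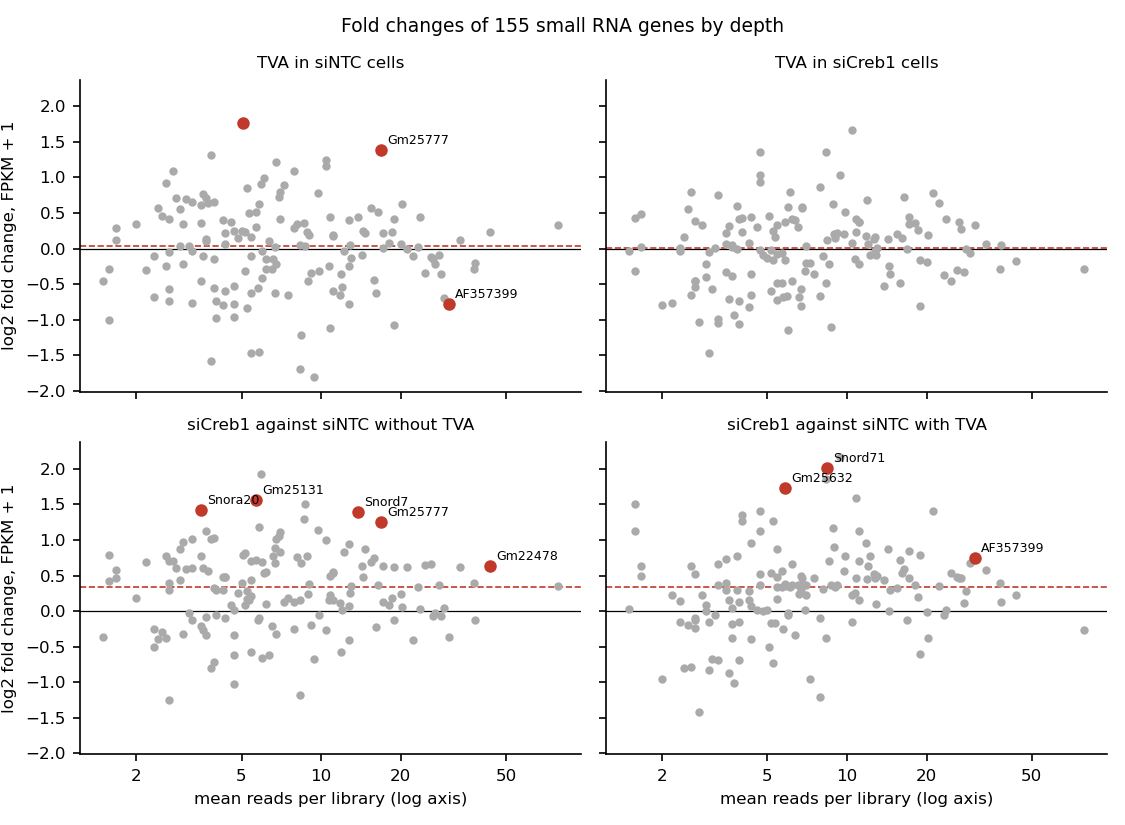
Log2 fold change of FPKM with 1 added (vertical) against mean recovered reads per library (horizontal, log axis) for the 155 members in the 4 comparisons of groups; red points are called members and the dashed red line is the median of the members. The median lies at 0.34 in both siCreb1 comparisons and at 0.04 and 0.01 in the TVA comparisons.

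Summed over all 155 members, small RNA reads were more frequent in siCreb1 than in siNTC cells, with and without TVA, and about equal with and without TVA. In RPM (reads scaled to 1000000 recovered reads per library), the sum was 60.0, 65.5 and 65.7 in siNTC, 63.8, 63.2 and 68.3 in siNTC plus TVA, 81.0, 84.4 and 81.8 in siCreb1 and 84.5, 81.8 and 83.6 in siCreb1 plus TVA. All 6 siCreb1 libraries lay above all 6 siNTC libraries, and the TVA and DMSO libraries of each siRNA overlapped. Group means were 63.7 ± 3.22 (SD, n = 3), 65.1 ± 2.82, 82.4 ± 1.78 and 83.3 ± 1.39, which gives a siCreb1 to siNTC ratio of 1.29 ± 0.0710 without TVA and 1.28 ± 0.0594 with TVA. The ratio of TVA to DMSO was 1.02 ± 0.0680 in siNTC and 1.01 ± 0.0276 in siCreb1 cells. In RNA from a culture, fewer cells of a type and less RNA per cell cannot be told apart, and a share of all reads moves with every other RNA counted. No p is given for sums, since the members were chosen with results of these data known.

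By class, the 101 snoRNA members summed to 47.1 ± 2.04 RPM in siNTC, 45.4 ± 2.18 in siNTC plus TVA, 58.8 ± 3.42 in siCreb1 and 59.2 ± 2.41 in siCreb1 plus TVA (SD, n = 3), ratios of siCreb1 to siNTC of 1.25 and 1.30. The 47 snRNA members summed to 10.7, 12.3 and 13.2 in the siNTC libraries and to means of 14.7 ± 1.60, 18.2 ± 2.05 and 18.8 ± 1.07 in the other groups, ratios of 1.51 and 1.27. For both classes the siCreb1 libraries did not overlap the siNTC libraries of the same treatment. The snRNA sum also differed with TVA in siNTC cells by a ratio of 1.22 ± 0.184, where the highest siNTC library had 13.2 RPM and the lowest siNTC plus TVA library 13.8. By position, that ratio was 1.33 for 26 snRNA members inside a gene on the opposite strand and 1.09 for 19 in an intron. For 2 outside other genes it was 1.38. Within each position the libraries overlapped. Most snRNA members thus lay inside other genes, and reads of those genes cannot be told apart from theirs. The 7 scaRNA members summed to 4.58 ± 0.0409, 4.92 ± 1.02, 5.37 ± 0.731 and 5.33 ± 0.250, with overlapping groups.

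**Figure D2:**
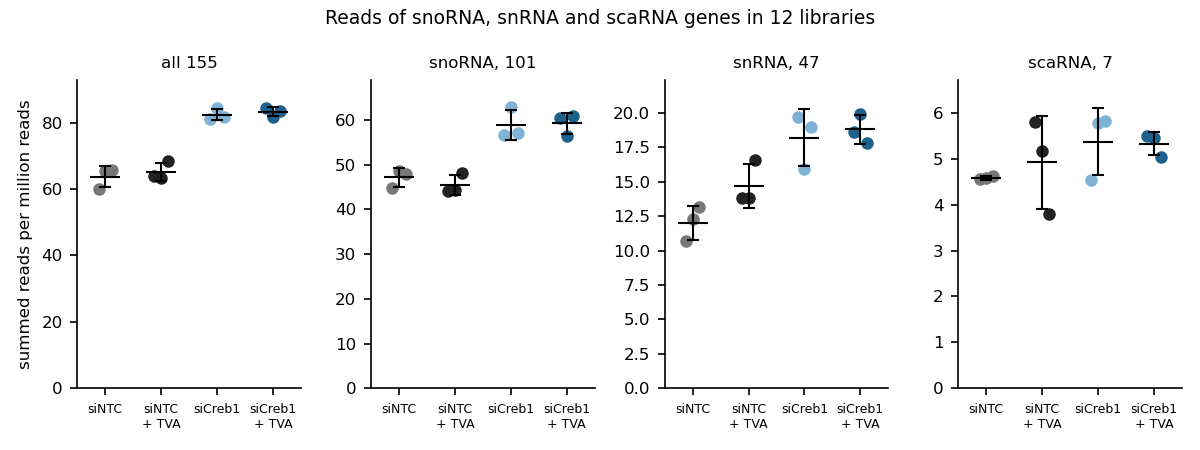
Summed reads of the members in RPM in each library (dots), with the group mean and SD of 3 libraries, for all 155 members and for the 101 snoRNA, 47 snRNA and 7 scaRNA members, on axes that start at 0. All siCreb1 libraries lie at 81.0 or higher and all siNTC libraries at 68.3 or lower in the sum over all members.

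The higher sum was found with and without the most read genes. Without Snord104, the member with the most reads, the siCreb1 to siNTC ratio was 1.29 without and 1.31 with TVA. Members with a mean of at least 10 reads gave 1.27 and 1.28, and members under 10 reads gave 1.35 and 1.28. Genes of the 3 classes that fell below the limit of 1 FPKM, which the rule left out, summed to 13.2 ± 1.44, 12.7 ± 0.608, 17.2 ± 1.32 and 19.7 ± 1.23 RPM, ratios of 1.31 and 1.55.

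Some other kinds of RNA also stood higher in siCreb1 cells, while others did not. The kinds given here come from no list of the design, and Malat1 and Neat1 were chosen after their values were seen. Malat1, a long RNA of nuclear speckles, stood at 84.2, 82.5 and 86.2 FPKM under siNTC, 79.1, 79.8 and 78.4 with TVA added, 119, 119 and 118 in siCreb1 and 125, 121 and 120 in siCreb1 plus TVA. Its siCreb1 and siNTC libraries did not overlap (log2 0.49, SE 0.02, adjusted p = 2.21e-06 without TVA and 0.62, SE 0.02, adjusted p = 5.39e-07 with TVA). Neat1, the scaffold of paraspeckles, gave 0.47 (SE 0.06, adjusted p = 0.00128) and 0.41 (SE 0.06, adjusted p = 0.00447). As ratios of RPM, siCreb1 to siNTC without and with TVA, Malat1 had 1.43 and 1.57, Neat1 1.43 and 1.37, lincRNA genes 1.21 and 1.17, transcripts of class TEC, which await experiments, 1.26 and 1.27, sense intronic RNAs 1.18 and 1.34 and antisense RNAs 1.10 and 1.17. Processed pseudogenes had 0.952 and 0.936. Groups overlapped for Rn7sk, a small nuclear RNA that holds back transcription elongation and is listed outside the 3 classes (1.31 and 1.03), and genes of class misc_RNA had 1.32 without overlap and, with TVA, 1.21 with overlap. Whether the small RNA sums and these other RNAs moved for a shared reason was not tested.

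**Figure D3:**
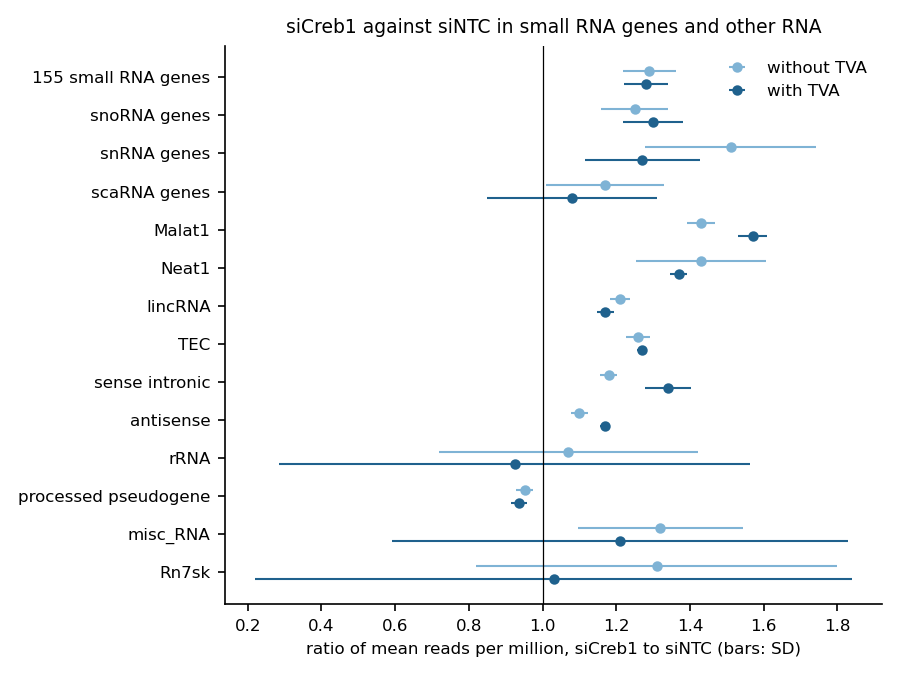
Ratio of mean RPM, siCreb1 to siNTC, without and with TVA, with its SD from 3 libraries a group, for the members, their classes and other kinds of RNA. Members lie at 1.29 and 1.28, between processed pseudogenes at 0.952 and 0.936 and Malat1 at 1.43 and 1.57.

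Ribosomal RNA reads did not follow the siRNA. They made up 714, 1027 and 847 RPM in siNTC, 860, 2303 and 878 in siNTC plus TVA, 827, 728 and 1208 in siCreb1 and 792, 1533 and 1409 in siCreb1 plus TVA. The 3 highest libraries are siNTC plus TVA 2 and siCreb1 plus TVA 2 and 3, and the groups overlap. Rn7sk was also highest in those 3, at 74.8, 50.3 and 49.0 FPKM against 19.7 to 40.2 in the others. A fit without these 3, chosen after seeing the data, keeps 1 library of siCreb1 plus TVA and 2 of siNTC plus TVA; for single members it is quoted below only in comparisons that do not use siCreb1 plus TVA.

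The test asked for each gene whether groups differed, by limma over the 11550 genes with a mean of at least 1 FPKM, and a gene is called below when its adjusted p lay under 0.05. Over the 5 comparisons, 9 of the 155 members were called at least once. The share of all tested genes called at least once is not given here. It cannot lie below the 13.7% called in siCreb1 against siNTC without TVA. In the siCreb1 comparisons few members passed the test, and fitted values of the members lay above 0 more often than those of all genes: the median log2 fold change of the members was 0.34 both without and with TVA, where the median of all tested genes was −0.00 and −0.01. Above 0 were 111 of 155 members (71.6%) without TVA and 113 (72.9%) with TVA, against 49.6 and 46.0% of all tested genes. The member median was 0.28 and 0.29 with quantile normalization, 0.45 and 0.47 on the TPM scale and 0.42 and 0.41 by limma-voom on recovered reads. All genes also stood above 0 more often in the last 2: on the TPM scale 72.3 and 74.2% of members stand beside 62.6 and 61.2% of all genes, and by limma-voom 72.9% of members in both stand beside 55.2 and 51.8%. Each group serves in 2 of the 4 comparisons of groups, so these are not independent.

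Lowering of Creb1 without TVA gave 5 called members, all higher: Snora20, Gm25131, Snord7, Gm25777 and Gm22478. Snora20 and Gm25131 met the limit of 1 FPKM only through the siCreb1 libraries, so the choice of members favoured their rise and this count. The 5 of 155 stand beside 13.7% of all tested genes called in either direction, 6.52% higher and 7.21% lower. By the main test 0 members were called lower, and limma-voom called 6 members in all. At an unadjusted p under 0.05 by the main test, 19 members were higher (12.3%, beside 13.6% of all tested genes). At that threshold 1 was lower (0.645%, beside 14.5%). Gm23706, a snoRNA gene, was called lower with the replicate block (−1.25, adjusted p = 0.0365), without siNTC 2 (adjusted p = 0.0346) and without siCreb1 1 (adjusted p = 0.0282). The share of called members is below that of all genes, and the part of read depth in this was not tested. The count was 1 without siCreb1 2, 3 without siNTC 2, 9 without siNTC plus TVA 3 and 10 without siNTC plus TVA 1.

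Lowering of Creb1 with TVA gave 3 called members, all higher: AF357399, Gm25632 and Snord71. This compares with 10.1% of all tested genes, 4.64% higher and 5.51% lower. By the main test 0 members were called lower, and limma-voom called 5 members in all. At an unadjusted p under 0.05 by the main test, 21 members were higher (13.5%, beside 11.6% of all tested genes). At that threshold 5 were lower (3.23%, beside 14.6%). Other settings called members lower: Gm24336 with the block (−0.68, adjusted p = 0.0433), Gm25321 with the compared groups alone (−0.95, adjusted p = 0.0489), and, with a library left out, Snord65, Scarna8, Gm22573, Snord59a and Gm22485 (−1.84 to −0.60, adjusted p = 0.0139 to 0.0499). Gm24336 stood just above the limit of 1 FPKM, and the choice of members favoured its fall. The count was 1 without siCreb1 plus TVA 1 or siCreb1 plus TVA 2, 5 without siNTC 1 or siNTC 3 and 6 without siNTC plus TVA 1 or siCreb1 2.

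TVA in siNTC cells gave 3 called members, Gm25777 and an snRNA gene that is not described here higher and AF357399 lower, beside 7.38% of all tested genes, 4.49% higher and 2.88% lower. The member median was 0.04 (all genes −0.01), and 82 of 155 members lay above 0. The count was 1 without siNTC 3 or siCreb1 plus TVA 2, 5 without siCreb1 1 or siCreb1 2 and 6 without siNTC plus TVA 1. TVA in siCreb1 cells gave 0 called members by limma, beside 0.537% of all tested genes, and 0 by limma-voom. At an unadjusted p under 0.05 by limma there were 14 members (9.03%), beside 9.58% of all tested genes. The count of called members was 1 without siNTC 2. For TVA in siCreb1 cells the member median was 0.01 (all genes −0.00).

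The interaction, which asks whether the response to TVA differed between siCreb1 and siNTC cells, called 0 members by limma beside 2.24% of all tested genes. At an unadjusted p under 0.05 by limma there were 15 members (9.68%), beside 14.3% of all tested genes. Limma-voom called 1, Gm26202. The replicate block called 2, Gm25632 and Gm24336, and a mean of at least 5 FPKM or of at least 10 reads called 1, AF357399. Leaving out siNTC 1, siNTC 2, siNTC 3, siNTC plus TVA 2, siNTC plus TVA 3 or siCreb1 plus TVA 1 gave 1, and leaving out siCreb1 plus TVA 3 gave 2. By the main test, members that were called with TVA and not without it, or the reverse, are therefore not shown to differ between the conditions, and for Gm25632 and AF357399 this depends on the setting. Gm24336 stood just above the limit at a mean of 1.021 FPKM. Its pooled reads were 5 in siNTC, 13 in siNTC plus TVA, 13 in siCreb1 and 6 in siCreb1 plus TVA. The choice of members thus favoured its interaction.

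Box C/D RNAs. Snord7 (ENSMUSG00000065715, chr11:83294304-83294400, + strand) lies in an intron of the noncoding gene AA465934. Reads numbered 7, 4 and 8 under siNTC and 12, 10 and 5 with TVA added, against 12, 24 and 34 under siCreb1 and 22, 17 and 10 with TVA added. Without TVA, every siCreb1 library was above every siNTC library, also in RPM, while the groups with TVA overlapped. Means were 3.32 ± 0.843 FPKM in siNTC and 10.9 ± 4.97 in siCreb1 (SD, n = 3; log2 1.39, SE 0.37, adjusted p = 0.0322). Pooled over libraries, 70 reads stood against 19, a ratio of RPM of 3.32 with a 95% interval of 1.98 to 5.84, where intervals here and below cover counting error only. Its host gave 0.06 (SE 0.19, adjusted p = 0.879). The adjusted p was 0.0668 without siNTC 1, 0.103 without siNTC 2, 0.0546 without siNTC 3, 0.0903 without siCreb1 2 and 0.109 without siCreb1 3. It was 0.0998 without a filter on FPKM, 0.0625 with replicate number as a block, 0.0535 with the compared groups alone and 0.0643 without the 3 libraries high in ribosomal RNA.

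Snord71 (ENSMUSG00000077549, chr8:109839295-109839379, + strand) lies in an intron of Ap1g1, a subunit gene of a vesicle coat adaptor. Under siNTC it gave 2, 7 and 9 reads with DMSO and 2, 0 and 3 with TVA, and under siCreb1 5, 18 and 13 and 14, 21 and 7. With TVA the siCreb1 libraries were all above the siNTC libraries, whereas without TVA the groups overlapped. Means with TVA were 1.0 ± 0.899 and 6.82 ± 3.07 FPKM (SD, n = 3; log2 2.01, SE 0.53, adjusted p = 0.0395), and 42 reads stood against 5, a ratio of 6.64 with an interval of 2.63 to 21.5. Ap1g1 itself gave −0.01 (SE 0.03, adjusted p = 0.946). The adjusted p was 0.0696, 0.123 and 0.0505 without siNTC plus TVA 1, 2 and 3, 0.0534 without siCreb1 3, 0.102 without siCreb1 plus TVA 1 and 0.127 without siCreb1 plus TVA 2. It was 0.0620 with a pseudocount of 0.1, 0.116 without a filter, 0.0517 on the TPM scale, 0.0540 without a trend and 0.0573 with the block.

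Gm25632 (ENSMUSG00000094251, chr2:32225653-32225737, + strand) lies in an intron of Prrc2b. Its siNTC libraries held 8, 4 and 6 reads and those with TVA 3, 0 and 1, while siCreb1 libraries held 12, 4 and 4 and, with TVA, 13, 7 and 8. The siNTC libraries with TVA were lowest and did not overlap the siCreb1 libraries with TVA (0.829 ± 0.979 and 4.64 ± 1.58 FPKM, SD, n = 3; log2 1.73, SE 0.43, adjusted p = 0.0306). That is 28 reads against 4, a ratio of 5.53 with an interval of 1.94 to 21.7. Gm22192, another member in the same host, has the identical sequence and had 1, 4 and 3, 1, 4 and 3, 2, 7 and 1, and 4, 0 and 8 reads in the same order of groups, with −0.05 (SE 0.61, adjusted p = 0.974) in that comparison. How reads of identical copies were assigned is not given in the sources used here, so the value of either copy is uncertain. The adjusted p of Gm25632 was 0.0961 and 0.0779 without siNTC plus TVA 2 and 3, and 0.101, 0.0553 and 0.0715 without siCreb1 plus TVA 1, 2 and 3. It was 0.0925 without a filter and 0.0529 with the compared groups alone. With the block it was 0.00362, and the block also called Gm25632 lower with TVA in siNTC cells (−1.45, adjusted p = 0.00322) and in the interaction (1.83, adjusted p = 0.0168). That fall with TVA was called too without siNTC plus TVA 1 (adjusted p = 0.0303) and without siCreb1 1 (adjusted p = 0.0395).

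Snord104 (ENSMUSG00000065126, chr11:106500993-106501062, + strand), the most abundant member at 54.2 FPKM, lies outside other genes. Reads numbered 67, 63 and 60 under siNTC and 79, 62 and 90 with TVA added, against 69, 118 and 93 under siCreb1 and 94, 61 and 91 with TVA added. In RPM the siNTC libraries lay just below those with TVA, the other groups compared overlapped, and no comparison called it (0.35, SE 0.20, adjusted p = 0.300, without TVA, and an interaction of −0.62, SE 0.29, adjusted p = 0.362). Snord72 (chr15:5118404-5118484, + strand), in the ribosomal protein gene Rpl37, had 23 to 49 reads a library and fitted values of −0.20 to 0.13 in the 4 comparisons of groups, none called. The 48 snoRNA members with both boxes summed to ratios of 1.21 without and 1.28 with TVA, with 33 and 37 of 48 above 0.

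Box H/ACA RNAs. Snora20 (ENSMUSG00000064637, chr17:12922790-12922917, + strand) lies in an intron of Tcp1, which encodes a chaperonin subunit. Under siNTC it gave 1, 0 and 1 reads with DMSO and 3, 0 and 2 with TVA, and under siCreb1 9, 4 and 7 and 4, 5 and 6. The siCreb1 libraries stood above the siNTC libraries in both treatments. Without TVA the means were 0.256 ± 0.222 and 2.41 ± 0.984 FPKM (SD, n = 3; log2 1.42, SE 0.30, adjusted p = 0.0121), and with TVA the log2 value was 0.73 (SE 0.30, adjusted p = 0.153). In all, 20 reads stood against 2 without TVA, a ratio of 9.01 with an interval of 2.19 to 79.5. The call held with each of the 12 libraries left out in turn (adjusted p up to 0.0485) and ended with a pseudocount of 0.1 (adjusted p = 0.0501). Its siNTC groups averaged 0.256 and 0.679 FPKM, so Snora20 met the limit of 1 FPKM only through the siCreb1 libraries, and the choice of members favoured the rise that was then tested; without a filter on FPKM the adjusted p was 0.0413. Tcp1 gave 0.04 (SE 0.03, adjusted p = 0.419).

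Gm25777 (ENSMUSG00000080364, chr16:18240717-18240842, − strand), whose last bases hold ACA as in Snora20, lies in an intron of Ranbp1, a regulator of the Ran cycle of nuclear transport. Its siNTC libraries held 6, 10 and 3 reads and those with TVA 11, 23 and 24, while siCreb1 libraries held 15, 24 and 21 and, with TVA, 17, 26 and 22. The siNTC libraries were lowest and overlapped none of the other groups in RPM. Means were 2.7 ± 1.73, 8.35 ± 3.24, 7.25 ± 1.44 and 7.26 ± 1.43 FPKM (SD, n = 3). TVA in siNTC cells gave 1.38 (SE 0.34, adjusted p = 0.0363; 58 reads against 19, ratio 3.23, interval 1.89 to 5.74) and siCreb1 without TVA gave 1.25 (SE 0.34, adjusted p = 0.0361; 60 against 19, ratio 2.85, interval 1.67 to 5.05). The interaction was −1.38 (adjusted p = 0.207). Its host Ranbp1 was also lowest in siNTC, at smaller size (means of 23.5, 28.5, 28.1 and 27.2 FPKM in the same order of groups), with 0.27 (SE 0.03, adjusted p = 0.000844) for TVA in siNTC cells, 0.25 (SE 0.03, adjusted p = 0.00145) for siCreb1 without TVA and −0.31 (SE 0.05, adjusted p = 0.00799) for the interaction. Reads of an intron and of the mature small RNA cannot be told apart in these files.

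Both calls of Gm25777 ended when any of several libraries was left out. For TVA the adjusted p was 0.0871 without siNTC 1, 0.0996 without siNTC 3, 0.126 and 0.114 without siNTC plus TVA 2 and 3, 0.0541 without siCreb1 3, and 0.0527 and 0.0526 without siCreb1 plus TVA 2 and 3; it was 0.117 without a filter, 0.0508 without a trend, 0.150 with the compared groups alone and 0.202 without the 3 libraries high in ribosomal RNA. For siCreb1 it was 0.0863 without siNTC 1, 0.103 without siNTC 3, 0.0577, 0.109 and 0.0947 without siCreb1 1, 2 and 3, and 0.0507 without siCreb1 plus TVA 3. It was 0.111 without a filter, 0.0745 with the compared groups alone and 0.0732 without the 3 libraries high in ribosomal RNA.

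The 34 snoRNA members with ACA before the last 3 bases summed to 14.6 ± 1.24 RPM in siNTC, 14.5 ± 0.576 in siNTC plus TVA, 18.2 ± 1.90 in siCreb1 and 18.8 ± 0.719 in siCreb1 plus TVA (SD, n = 3). These are ratios of 1.25 and 1.30, and 23 of the 34 lay above 0 without TVA and 26 with TVA.

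Other snoRNA members. AF357399 (ENSMUSG00000077711, chr7:28351508-28351632, + strand) lies in an intron of Rps16, a ribosomal protein gene. Reads numbered 34, 24 and 46 under siNTC and 20, 17 and 16 with TVA added, against 32, 26 and 28 under siCreb1 and 39, 52 and 31 with TVA added. The siNTC libraries with TVA were the 3 lowest of the 12. Means were 14.1 ± 3.38, 7.71 ± 1.25, 10.6 ± 1.51 and 13.6 ± 2.75 FPKM (SD, n = 3). By the main test AF357399 was lower with TVA than without it in siNTC cells (log2 −0.78, SE 0.18, adjusted p = 0.0264, 53 reads against 104, ratio 0.539, interval 0.379 to 0.757). In siCreb1 with TVA it stood above siNTC with TVA (0.74, SE 0.18, adjusted p = 0.0290, 122 against 53, ratio 1.82, interval 1.31 to 2.56). Both calls depended on the setting, as given below. The interaction was 1.11 (SE 0.26, adjusted p = 0.0539), so a different response to TVA was not called by the main test; it was called with a mean of at least 5 FPKM (adjusted p = 0.0354), with at least 10 mean reads (adjusted p = 0.0466) and without siNTC 2 (adjusted p = 0.0343). Rps16 itself gave −0.05 (adjusted p = 0.351) for TVA in siNTC cells and −0.12 (adjusted p = 0.0311) for siCreb1 with TVA, the opposite direction to the small RNA in the latter.

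Both calls of AF357399 share the 3 siNTC libraries with TVA. For TVA the adjusted p was 0.0614 without siNTC 1, 0.0787 without siNTC 3 and 0.0585 and 0.0940 without siNTC plus TVA 2 and 3; it was 0.0846 without a filter, 0.150 by limma-voom, 0.0537 with the block, 0.0777 with the compared groups alone and 0.0839 without the 3 libraries high in ribosomal RNA. For siCreb1 with TVA it was 0.0627 and 0.0904 without siNTC plus TVA 2 and 3, and 0.0721 and 0.0981 without siCreb1 plus TVA 1 and 2. It was 0.0865 without a filter, 0.111 by limma-voom and 0.0534 with the block.

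Gm22478 (ENSMUSG00000084519, chr7:45388531-45388684, + strand) lies on the strand opposite to Snrnp70, the gene of a spliceosomal protein. Under siNTC it gave 38, 29 and 25 reads with DMSO and 30, 32 and 43 with TVA, and under siCreb1 44, 59 and 63 and 44, 65 and 50. Without TVA every siCreb1 library exceeded every siNTC library (10.3 ± 2.3 and 16.4 ± 2.5 FPKM, SD, n = 3; log2 0.63, SE 0.17, adjusted p = 0.0339), and with TVA the groups overlapped. Pooled, 166 reads stood against 92, a ratio of 1.63 with an interval of 1.25 to 2.12. Snrnp70, at 78.4 FPKM on average, was also higher in siCreb1 cells (0.19, SE 0.04, adjusted p = 0.0105 without TVA and 0.24, SE 0.04, adjusted p = 0.00546 with TVA). The strand that was counted is not given in the sources used here, so reads of Snrnp70 among those of Gm22478 cannot be told apart. The adjusted p was 0.0654 without siNTC 2, 0.0963 without siNTC 3, 0.0963 without siCreb1 2 and 0.111 without siCreb1 3, and it was 0.103 without a filter, 0.0881 by limma-voom, 0.0773 with the compared groups alone and 0.0666 without the 3 libraries high in ribosomal RNA.

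**Figure D4:**
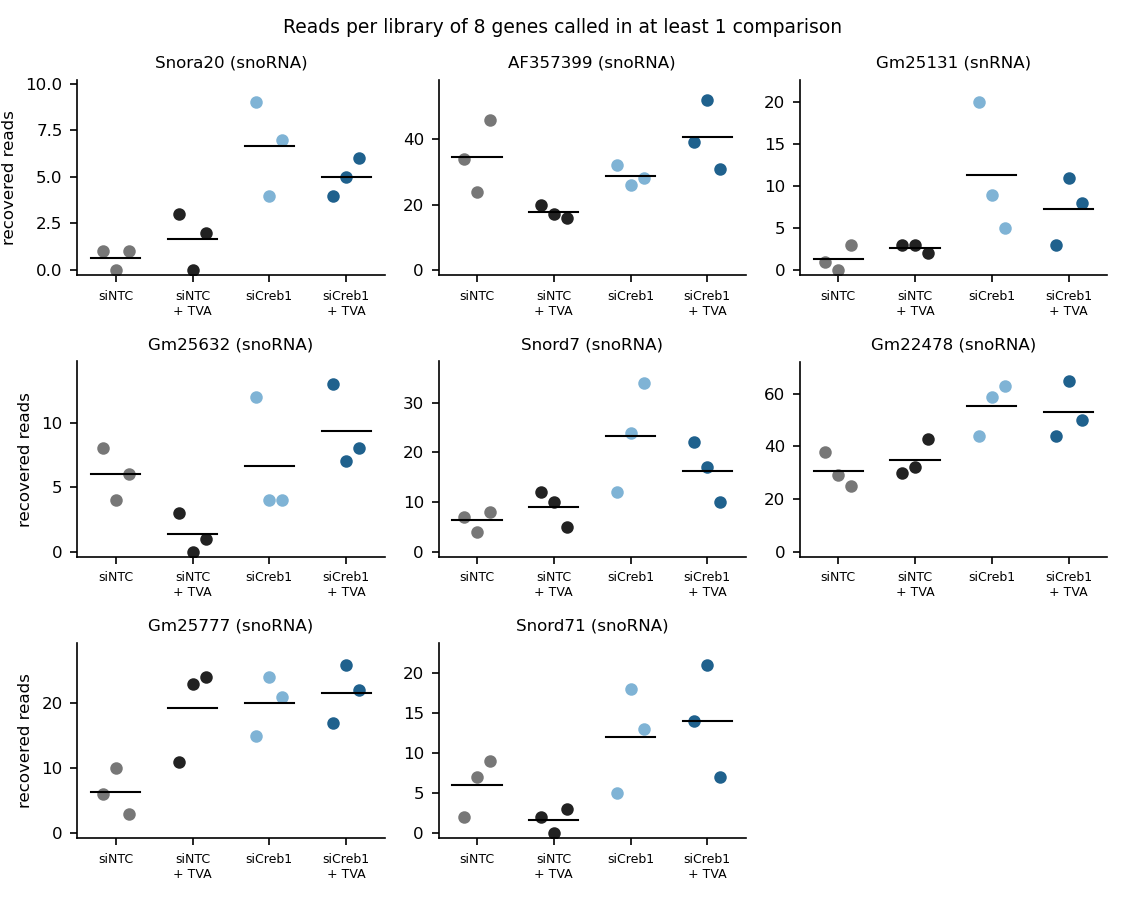
Recovered reads in each of the 12 libraries (dots) and group mean (line) of 8 called members. Counts run from 0 in siNTC libraries of Snora20 and Gm25131 to 65 reads in Gm22478.

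Small nuclear RNAs. Gm25131 (ENSMUSG00000064587, chr15:81039643-81039793, + strand) lies opposite to Mkl1, a coactivator gene of the serum response. Its siNTC libraries held 1, 0 and 3 reads and those with TVA 3, 3 and 2, while siCreb1 libraries held 20, 9 and 5 and, with TVA, 3, 11 and 8. Without TVA the siCreb1 libraries lay above the siNTC libraries, with siCreb1 1 far above the rest, and with TVA the groups overlapped. Means without TVA were 0.43 ± 0.487 and 3.5 ± 2.52 FPKM (SD, n = 3; log2 1.56, SE 0.40, adjusted p = 0.0275), and 34 reads stood against 4, a ratio of 7.66 with an interval of 2.73 to 29.7. Mkl1 gave −0.12 (SE 0.04, adjusted p = 0.0501). Its siNTC groups averaged 0.43 and 0.973 FPKM, so it too met the limit only through the siCreb1 libraries. The adjusted p of Gm25131 was 0.0707 without siNTC 1, 0.0917 without siNTC 2, 0.0830 without siCreb1 1 and 0.0607 without siCreb1 2, and it was 0.0866 without a filter, 0.0564 with the block, 0.0776 with the compared groups alone and 0.0541 without the 3 libraries high in ribosomal RNA.

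Gm24776 (ENSMUSG00000088268), an snRNA gene, had the largest fitted fall with TVA in siNTC cells and the largest fitted rise in siCreb1 against siNTC with TVA of all members, and neither was called by the main test. Under siNTC it gave 11, 5 and 14 reads with DMSO and 0, 1 and 5 with TVA, and under siCreb1 6, 10 and 3 and 27, 27 and 4. The siCreb1 libraries with TVA spread from 4 to 27 reads and overlapped the siNTC libraries with TVA in RPM. The log2 values were −1.81 (SE 0.64, adjusted p = 0.127) and 2.17 (SE 0.64, adjusted p = 0.0579). The rise was called by limma-voom (2.90, adjusted p = 0.0418), without siNTC plus TVA 3 (adjusted p = 0.0411) and without siCreb1 plus TVA 3 (adjusted p = 0.0188), where the interaction was called as well (adjusted p = 0.0465). Gm24430, another snRNA gene, gave 2, 3 and 9 reads under siNTC and 23, 15 and 14 under siCreb1, groups that did not overlap (52 reads against 14, ratio 3.35, interval 1.83 to 6.54, adjusted p = 0.0547), and was called by limma-voom (adjusted p = 0.0387), with the block (adjusted p = 0.0455) and without siNTC 3 (adjusted p = 0.0289) or siNTC plus TVA 3 (adjusted p = 0.0155).

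Cajal body RNAs. Gm22009 (ENSMUSG00000089417), in an intron of Kpna4, an importin gene, was the most read scaRNA member, with 21, 20 and 31 reads under siNTC, 20, 16 and 28 with TVA added, 33, 36 and 40 in siCreb1 and 29, 31 and 29 in siCreb1 plus TVA. Without TVA the siCreb1 libraries were highest and did not overlap the siNTC libraries (log2 0.36, SE 0.12, adjusted p = 0.0651), which did not pass the main test but did with the block (adjusted p = 0.0189) and without siNTC 3 (adjusted p = 0.0217) or siNTC plus TVA 3 (adjusted p = 0.0399). Scarna8 (ENSMUSG00000088958), in an intron of Haus6, a gene of the mitotic spindle, had 3, 0 and 3, 3, 2 and 3, 5, 10 and 5, and 0, 2 and 0 reads in the same order of groups. It was lowest in siCreb1 plus TVA, where 2 reads stood against 20 in siCreb1, a ratio of 0.0928 with an interval of 0.0105 to 0.382 (log2 −1.47, SE 0.31, adjusted p = 0.0920), and its interaction was −1.81 (SE 0.44, adjusted p = 0.0663). Neither was called by the main test, and the fall with TVA in siCreb1 cells was called without siNTC 2 (adjusted p = 0.0254). Scarna8 stood just above the limit at a mean of 1.093 FPKM, and 20 of its 36 reads came from siCreb1 libraries. The choice of members thus favoured the fall from siCreb1 and this interaction.

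Gm26202, a snoRNA gene in an intron of the ribosomal protein gene Rpl17, had the largest fitted interaction of all members. Its siNTC libraries held 11, 8 and 11 reads and those with TVA 1, 6 and 1, while siCreb1 libraries held 2, 10 and 3 and, with TVA, 27, 12 and 8. TVA libraries were lower than DMSO libraries in siNTC cells, and in siCreb1 cells the groups overlapped (interaction 3.04, SE 0.81, adjusted p = 0.0926, not called by the main test). The interaction was called by limma-voom (adjusted p = 0.0376) and without siNTC plus TVA 2 (adjusted p = 0.0281).

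By position, 111 members lay in an intron of a gene on the same strand and held 70.6% of the member reads, 34 lay inside a gene on the opposite strand (19.9%), 6 outside other genes (8.39%) and 4 overlapped an exon on the same strand (1.13%). The siCreb1 to siNTC ratio of summed RPM without and with TVA was 1.23 and 1.34 for intronic members and 1.54 and 1.25 for members opposite to a gene. Both kinds did not overlap between siRNAs: intronic members stood at 43.4 to 48.5 RPM in siNTC and 57.0 to 57.7 in siCreb1, and members opposite to a gene at 9.74 to 12.1 and 15.6 to 17.9. The 6 members outside other genes, Snord104 among them, had ratios of 1.39 and 0.902, and their siCreb1 and siNTC libraries overlapped.

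Host genes went in both directions. The 115 members in a gene on the same strand had 94 distinct hosts, of which 18 held more than 1 member. For 105 members the host was tested: the median log2 fold change of the 86 hosts was 0.00 without and −0.01 with TVA in siCreb1 against siNTC, where that of their members was 0.25 and 0.35. Of the 86 hosts, 11 were called higher (12.8%) and 8 lower (9.30%) without TVA, beside 6.52 and 7.21% of all tested genes. With TVA 4 were higher (4.65%) and 10 lower (11.6%), beside 4.64 and 5.51%. For TVA in siNTC cells the medians were −0.02 for hosts and −0.04 for members. No test of the difference between members and hosts was run.

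**Figure D5:**
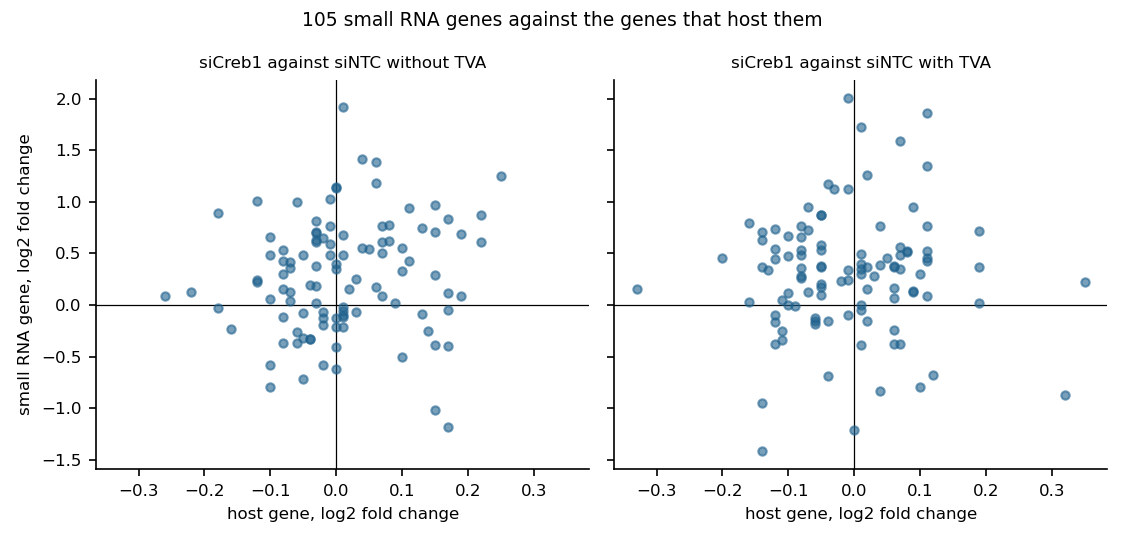
Log2 fold change of each of 105 members (vertical) against that of its host gene (horizontal) in siCreb1 against siNTC, without and with TVA. Hosts cluster near 0 while members spread widely above and below, with medians of 0.25 and 0.35.

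Near copies were frequent. Of the 155 members, 46 had another listed gene of at least 90% identity over at least 80% of the length (25 snoRNA, 19 snRNA and 2 scaRNA), 29 had such a copy with a read, and 4 had an identical copy. Gm22270 and Gm26387, both in introns of the ribosomal protein gene Rpl5, are 96.9% alike; Gm22270 gave 0.67 (SE 0.20, adjusted p = 0.0557) and Gm26387 0.47 (SE 0.27, adjusted p = 0.311) in siCreb1 against siNTC with TVA. Gm22270 was called there in several other settings, among them a mean of at least 5 FPKM (adjusted p = 0.0391) and the compared groups alone (adjusted p = 0.0237). The summed ratio was 1.29 without and 1.38 with TVA for members with a near copy, and 1.30 and 1.24 for the 109 without.

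Proteins that make, carry or degrade these RNAs, other short noncoding RNAs and known host genes were taken as 13 lists of 167 names, of which 149 were tested. In siCreb1 against siNTC without TVA, 14 were higher (9.40%, beside 6.52% of all tested genes) and 5 lower (3.36%, beside 7.21%), and with TVA 10 were higher (6.71%, beside 4.64%) and 7 lower (4.70%, beside 5.51%). TVA in siNTC cells gave 7 higher (4.70%, beside 4.49%) and 4 lower (2.68%, beside 2.88%), TVA in siCreb1 cells 0 higher (beside 0.121%) and 1 lower (0.671%, beside 0.416%), and the interaction 0 higher (beside 0.459%) and 2 lower (1.34%, beside 1.78%). The list medians were 0.03, −0.03, 0.02, −0.01 and −0.04 in that order, pooled over lists that differ.

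Of the 5 core proteins of box C/D particles, Nop56 (0.15, SE 0.03, adjusted p = 0.00877) and Nop58 (0.15, SE 0.04, adjusted p = 0.0402) were higher and Snu13, which binds the RNA first (−0.18, SE 0.03, adjusted p = 0.00802), was lower in siCreb1 cells without TVA. None of the 5 was called in the other 4 comparisons. Of 6 box H/ACA proteins, the pseudouridine synthase gene Dkc1 was higher with TVA in siNTC cells (0.18, SE 0.04, adjusted p = 0.0137) and in siCreb1 cells without TVA (0.13, SE 0.04, adjusted p = 0.0438), and Nop10 was lower in siCreb1 cells with TVA (−0.27, SE 0.06, adjusted p = 0.0136). Of 11 assembly factors, Rpap3 was lower in siCreb1 cells without TVA (−0.20, SE 0.05, adjusted p = 0.0253), and no other was called.

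Sm proteins form the ring on most small nuclear RNAs. Of 7 tested Sm genes, Snrpd1 was higher with TVA in siNTC cells (0.37, SE 0.03, adjusted p = 7.29e-05) and in siCreb1 cells without TVA (0.13, SE 0.03, adjusted p = 0.0276), lower in siCreb1 cells with TVA (−0.22, SE 0.03, adjusted p = 0.00354), and differed in its response to TVA (interaction −0.35, SE 0.05, adjusted p = 0.00364). Snrpd3 was lower in siCreb1 cells with TVA (−0.28, SE 0.07, adjusted p = 0.0266). The median of the 7 was −0.20 there and −0.21 for the interaction, with 0 of 7 above 0 in both, and 0.11 for TVA in siNTC cells with 6 above 0. Of 10 LSm genes, Lsm6 was higher with TVA in siNTC cells (0.25, adjusted p = 0.00689) and in siCreb1 cells without TVA (0.18, adjusted p = 0.0295), and Lsm1, of a cytoplasmic decay complex, was lower in siCreb1 cells without (−0.31, adjusted p = 0.00109) and with TVA (−0.15, adjusted p = 0.0413). The LSm median was −0.13 in siCreb1 cells with TVA, with 1 of 10 above 0.

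Among 20 proteins particular to single spliceosomal particles, 4 were higher and 0 lower in siCreb1 cells without TVA (Snrnp70, Prpf8, Snrnp48 and Zrsr2) and 4 higher and 0 lower with TVA (Snrnp70, Prpf8, Snrnp35 and Snrnp48), by limma, beside 6.52% higher and 7.21% lower, and 4.64 and 5.51%, of all tested genes. Snrnp48, of the minor spliceosome, gave 0.24 (SE 0.03, adjusted p = 0.000886) and 0.29 (SE 0.03, adjusted p = 0.000705), and Prpf8, at the core of the spliceosome, 0.11 (adjusted p = 0.00928) and 0.09 (adjusted p = 0.0206). The list median was 0.05 and −0.02. Of 11 tested genes of the SMN complex, which loads Sm rings, Strap was lower in siCreb1 cells with TVA (−0.13, adjusted p = 0.0368).

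Of 13 genes of snRNA transcription, Snapc3 (0.18, adjusted p = 0.0221) and Snapc4 (0.26, adjusted p = 0.0445), subunits of the activator that binds snRNA promoters, were higher in siCreb1 cells with TVA. Of 14 genes of Integrator, the complex that ends snRNA transcripts, Ints1 was higher in siCreb1 cells without (0.12, adjusted p = 0.0413) and with TVA (0.14, adjusted p = 0.0299), as was Ints7 (0.17, adjusted p = 0.0140 and 0.14, adjusted p = 0.0383). Of 12 tested genes of cap formation, export and trimming, Mepce was lower in siCreb1 cells without TVA (−0.14, adjusted p = 0.00993).

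Of 16 tested genes of nuclear RNA turnover, the exosome nuclease Dis3 was higher with TVA in siNTC cells (0.22, adjusted p = 0.0163) and in siCreb1 cells without TVA (0.33, adjusted p = 0.00150), with an interaction of −0.30 (adjusted p = 0.0491). Exosc8 was higher with TVA in siNTC cells (0.14, adjusted p = 0.0326) and Zcchc7 in siCreb1 cells with TVA (0.20, adjusted p = 0.0250). Of 9 other short noncoding RNAs, Rn7sk and Terc were tested and called in no comparison, while Rmrp, Rpph1 and Rny3 were listed at 0.

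Known host genes by name gave 22 tested genes. Snhg17 was higher in siCreb1 cells without (0.20, adjusted p = 0.00794) and with TVA (0.33, adjusted p = 0.00123) and lower with TVA in siNTC cells (−0.15, adjusted p = 0.0484), and Snhg5 was higher with TVA in siNTC cells (0.25, adjusted p = 0.0470) and in siCreb1 cells without TVA (0.30, adjusted p = 0.0135). Rack1, a ribosomal scaffold, was lower in these 3 comparisons: −0.12 (adjusted p = 0.0107) for TVA in siNTC cells, −0.15 (adjusted p = 0.00273) without TVA and −0.14 (adjusted p = 0.00680) with TVA, where 1 other host that is not described here was lower too. Zfas1 was lower with TVA in siCreb1 cells (−0.40, SE 0.06, adjusted p = 0.0175). Hspa8 was higher and Epb41l4aos and Eef2 were lower with TVA in siNTC cells.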

How the data were processed

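The authors deposited FPKM per gene for each of 12 libraries, 3 in each of 4 groups. Genome builds GRCm38 and mm10 come from the submitters' processing notes; the aligner, the counting tool, the counted strand and the treatment of reads with several matches are not given in the sources used here. Reads were recovered as FPKM times gene length and set to whole numbers with a tolerance of 0.05. Members and gene lists were chosen with earlier results of these data known. Genes with a mean of at least 1 FPKM (11550) were fitted with limma 3.58.1 in R 4.3.3 (trend, log2 of FPKM plus 1, a coefficient per group, two-sided, Benjamini-Hochberg over all genes). Named genes were drawn from Creb1, called members, the 10 most read members, the 3 largest rises and falls per comparison, members at the limit, their hosts and listed genes; Malat1, Neat1, near copies and genes opposite to a member were added, and some genes of the rule left unnamed, after values were seen. Alternatives were a pseudocount of 0.1, other filters, quantile normalization, TPM, limma-voom, no trend, a replicate block, the compared groups alone, each library left out, and, chosen after seeing the data, other sums and 3 libraries left out. Intervals of read ratios are exact Clopper-Pearson. Near copies came from blastn 2.17.0 on GENCODE vM21.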

Additional observations from a re-analysis of the deposited data

How the results depend on the processing

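The ratios of summed member reads kept their direction for siCreb1 against siNTC in every alternative run: 1.26 to 1.31 with each library left out and 1.27 to 1.32 otherwise, while those for TVA stayed at 0.993 to 1.04. Members under 10 reads alone gave 1.35 without TVA and, for TVA in siCreb1 cells, 0.979. Counts of called members moved more. With no filter on FPKM they were 0 for TVA in siNTC cells, 1 for siCreb1 without TVA and 0 with TVA; more genes were then tested. With a mean of at least 5 FPKM they were 3 without and 5 with TVA and 1 for the interaction, and with at least 10 mean reads 3 without TVA and 1 for the interaction. Limma-voom gave 5 with TVA and 1 for the interaction. The replicate block gave 8 without TVA, 5 with TVA and 2 for the interaction, and 4 and 0 for TVA in siNTC and siCreb1 cells. With the compared groups alone, 8 were called without TVA. Without the 3 libraries highest in ribosomal RNA, chosen after seeing the data, 0 were called with TVA; siCreb1 plus TVA then keeps 1 library, assumed to vary like the other groups, so this count says nothing about ribosomal RNA. Leaving out each library gave 1 to 6 for TVA in siNTC cells, 0 to 1 for TVA in siCreb1 cells, 1 to 10 for siCreb1 without TVA, 1 to 6 with TVA and 0 to 2 for the interaction. The share of all tested genes called in each of these settings is not given here or above. The counts therefore do not show a movement particular to the members. Why these counts moved was not tested. No called fold change changed sign. Values near no difference did: without siNTC 1 the TVA ratio in siNTC cells was 0.993 and the member median −0.07, and the median for TVA in siCreb1 cells was −0.05 without siCreb1 plus TVA 3 and −0.03 by limma-voom.

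Replicate numbers showed no sign of pairing samples. After group means were removed, 18 pairs of libraries with the same number correlated at −0.06 to 0.06, 0 of them above 0.1. Of 12 libraries, 4 correlated best with one of their own number. With 3 libraries a group, these values cannot exclude pairing. Of the 155 members, 104 had fewer than 10 mean reads, and the smallest change detectable in such members was not tested.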
